A study of Mus musculus with 24 samples.

Results

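The cardiac sarcomere genes described here were Myh6, Myh7, Myl2, Myl7, Mybpc3, Actc1, Tnnt2, Tnni3, Tpm1 and Ttn. These 10 genes were taken by name and not by a methylation cutoff, but earlier results of these data were known when they were chosen. Their tiles were all 100 bp windows from 10 kb upstream of the gene start to the gene end in the RefSeq annotation of mm10 that liver, brain and heart had in common. This gave 466 of the 758685 shared tiles, and 10 of the 21721 genes that held 3 or more shared tiles within the same limits. No tile lay in the regions of more than 1 of the 10 genes, although Myh6 and Myh7 are neighbours on chromosome 14. Ttn alone held 255 of the 466 tiles and Actc1 held 10.

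DNA methylation was measured by reduced representation bisulphite sequencing (RRBS), which reads cytosine methylation in a part of the genome enriched for CpG-rich sequence. The mice were isogenic C57Bl/6J animals of 24 weeks of age, untreated and without any transgene in the labels. Liver was measured in 12 mice (6 male, 6 female), and brain and heart in 6 mice each (3 male, 3 female). These genders are as labelled, and 2 mouse numbers carry opposite genders in liver and in the other tissues. Only a piece of each organ was used, namely the front of the brain, the tip of the ventricles and part of 1 liver lobe, and each library was a mixture of the cell types in that piece. A tile level is the methylated fraction, from 0 to 1, and a tissue level is the mean over its libraries, with the SD over 12 liver, 6 brain or 6 heart libraries. The study was built to compare males with females, but the libraries within a tissue could not be tied to a mouse or a gender here. The comparison made was therefore between tissues, with both genders in each. In bulk tissue, a lower share of methylated cells and a change within every cell cannot be told apart, and neither can tissue and any difference in how the 3 tissue tables were made.

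The sarcomere is the contractile unit of striated muscle. Thick filaments are built of myosin heavy chains with essential and regulatory light chains and are braced by myosin-binding protein C. Thin filaments are built of actin carrying tropomyosin and the troponin complex, and titin spans from the Z-disc to the middle of the sarcomere as a molecular spring. In the adult mouse heart these proteins are made by cardiomyocytes, whereas hepatocytes and neurons do not build sarcomeres. Methylation of CpGs is commonly high across gene bodies and low at CpG-dense starts, and tissue-specific genes often lose methylation in the tissue that uses them.

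Across all shared tiles liver had a mean level of 0.653, brain of 0.652 and heart of 0.598. Heart was thus somewhat lower on average, with a median difference over all tiles of -0.035 against liver and -0.030 against brain, which is the level to read the genes against. Regions of 8 hepatocyte genes, used as a check of the labels, were lowest in liver for 7 of 8, against 13.5% of all gene regions. Of 8 brain genes, 4 were lowest in brain and 4 in heart (17.5% and 69.0% of all gene regions). Only 1 was called lower in brain than in liver, so this check was weak for brain. Regions of 4 endothelial genes were also lower in heart, with 4 of 4 called against liver and 3 of 4 against brain (13.7% and 13.0% of all gene regions). Their median differences were -0.20 and -0.23, as large as the -0.23 and -0.21 of the 10 sarcomere genes. Regions of 6 smooth muscle genes had median differences of -0.067 and -0.068. The part of non-muscle cells in the results below was not tested.

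The first brain library (brain library 1) stood apart from the other 5 and lay nearer to heart. Over all shared tiles its correlation with the heart libraries was 0.914 to 0.923, against 0.878 to 0.899 for the other 5. At the 86 tiles of the sarcomere genes where those 5 exceeded heart by 0.3 or more, it was the lowest brain library in 49, or 57.0%, and its level lay a median of 26.3% of the way to heart. The share over all 41714 shared tiles of that kind was 57.1%. Both sets of tiles were picked by high levels in the other 5, which by itself favours brain library 1 as the lowest. No other brain library was left out in the same way, so these shares cannot be read as a measure of its distance. Without this choice, brain library 1 was the lowest brain library in 42.1% of the tiles of the sarcomere genes and in 24.1% of all shared tiles. Several values that rest on brain are given with and without it, and the others with it only. The region difference of heart from brain without it was -0.213 in Tnnt2 and -0.155 in Ttn, beside -0.201 and -0.147 with it. Counts of tiles with every heart library below all others include it.

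Sequences of tiles with large differences are shown first, as the 100 bases of the tile in the direction of the gene, from the RefSeq mm10 genome. All CpGs of the genome sequence are in capitals, and CpG counts below are taken from that sequence. Which of the CpGs in a tile were covered by reads is not known. The first set holds, for 9 of the genes, a tile that was lower in every heart library than in any liver or brain library, and these lay mostly in exons and introns and not at starts.
Myh6, coding exon 26, chr14:54950501-54950600, minus strand: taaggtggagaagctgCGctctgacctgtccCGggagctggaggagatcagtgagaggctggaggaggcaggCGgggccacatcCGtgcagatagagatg
Myh7, coding exon 28, chr14:54979401-54979500, minus strand: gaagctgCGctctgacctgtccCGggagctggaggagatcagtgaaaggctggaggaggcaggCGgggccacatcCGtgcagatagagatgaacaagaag
Myl2, exon 4, chr5:122094701-122094800, plus strand: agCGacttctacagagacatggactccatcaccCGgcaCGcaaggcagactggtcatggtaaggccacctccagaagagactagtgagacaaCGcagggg
Mybpc3, coding exon 26, chr2:91132701-91132800, plus strand: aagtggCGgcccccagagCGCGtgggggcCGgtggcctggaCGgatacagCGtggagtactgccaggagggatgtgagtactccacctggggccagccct
Actc1, upstream, chr2:114054201-114054300, minus strand: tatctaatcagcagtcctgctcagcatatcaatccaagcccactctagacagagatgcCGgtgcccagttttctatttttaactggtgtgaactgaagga
Tnnt2, coding exon 2, chr1:135840901-135841000, plus strand: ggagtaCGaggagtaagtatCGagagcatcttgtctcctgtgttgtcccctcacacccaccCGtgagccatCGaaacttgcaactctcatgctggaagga
Tnni3, intron 5, chr7:4520701-4520800, minus strand: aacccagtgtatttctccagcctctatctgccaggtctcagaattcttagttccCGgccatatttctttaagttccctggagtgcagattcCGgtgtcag
Tpm1, intron 5, chr9:67032601-67032700, minus strand: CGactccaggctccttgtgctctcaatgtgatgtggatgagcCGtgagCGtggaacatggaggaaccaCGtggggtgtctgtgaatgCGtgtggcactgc
Ttn, intron 43, chr2:76928501-76928600, minus strand: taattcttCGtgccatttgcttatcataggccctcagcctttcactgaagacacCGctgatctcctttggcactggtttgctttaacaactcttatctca
The next set holds the covered tile nearest the start for the genes whose promoter carried a signal, followed by tiles in which heart was not the lowest tissue.
Mybpc3, coding exon 1, chr2:91118101-91118200, plus strand: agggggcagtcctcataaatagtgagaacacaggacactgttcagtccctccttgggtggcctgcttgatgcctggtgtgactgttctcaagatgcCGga
Ttn, promoter, chr2:76982601-76982700, minus strand: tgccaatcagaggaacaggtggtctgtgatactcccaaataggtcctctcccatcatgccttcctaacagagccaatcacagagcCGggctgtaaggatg
Tnni3, promoter, chr7:4522701-4522800, minus strand: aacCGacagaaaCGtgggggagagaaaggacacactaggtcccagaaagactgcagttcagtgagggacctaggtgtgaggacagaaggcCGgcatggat
Myh7, promoter, chr14:54995401-54995500, minus strand: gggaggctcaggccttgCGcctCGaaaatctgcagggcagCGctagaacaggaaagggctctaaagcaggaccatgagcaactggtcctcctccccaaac
Myl7, coding exon 3, chr11:5898101-5898200, minus strand: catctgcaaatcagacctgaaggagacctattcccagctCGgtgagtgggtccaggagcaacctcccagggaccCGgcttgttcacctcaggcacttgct
Tpm1, intron, chr9:67024901-67025000, minus strand: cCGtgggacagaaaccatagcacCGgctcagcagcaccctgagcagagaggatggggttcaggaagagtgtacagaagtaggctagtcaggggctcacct
The tiles differed widely in how many CpGs they held, from 1 in the Actc1 tile and the Ttn promoter tile to 6 in the Mybpc3 exon 26 tile, so a tile level can rest on a single CpG.

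All 10 sarcomere gene regions were less methylated in heart than in liver. Every heart library lay below every liver and brain library in the mean of each of the 10 regions, against 31.6% of all gene regions. By limma on region means (adjusted p of 0.01 or less and a difference of 0.1 or more), 10 of 10 regions were called lower in heart than in liver, against 13.7% of all gene regions. The same call was made for 9 of 10 against brain, against 13.0% of all gene regions. The median of the 10 regions was -0.23 against liver and -0.21 against brain, compared with -0.043 and -0.031 over all gene regions. Averaged over the 10 regions, liver had 0.735 ± 0.00622 (SD over libraries), brain 0.726 ± 0.019 and heart 0.517 ± 0.0122. Liver and brain were closer to each other, with brain minus liver between -0.043 in Mybpc3 and 0.084 in Myh6, and leaving out brain library 1 gave a brain mean of 0.734.

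**Figure D1:**
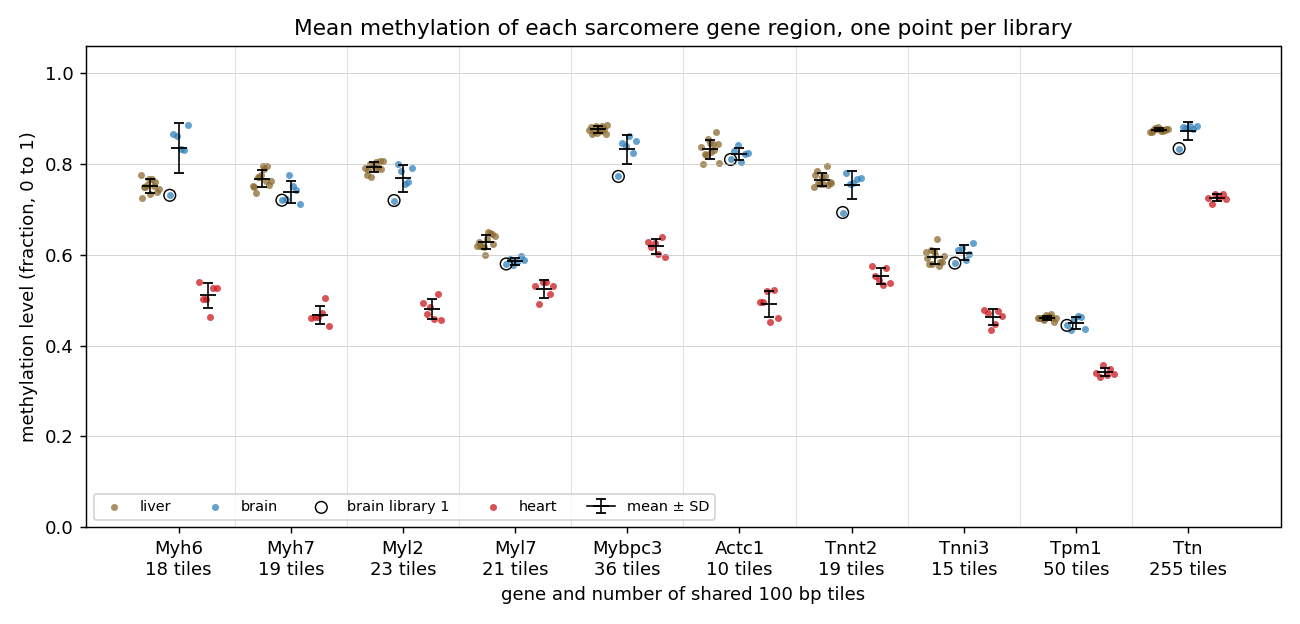
Mean methylation level (fraction) over the shared tiles of each gene region, with 1 point for each of the 12 liver, 6 brain and 6 heart libraries, and bars for the mean ± SD. The red heart points lie below all liver and brain points in every gene, most clearly for Actc1 (heart mean 0.491) and least for Myl7 (0.525 against 0.586 in brain), and the ringed brain library 1 is the lowest brain point in 6 of 10 genes.

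At single tiles the same picture held over much of the genes. By limma across all 758685 tiles (adjusted p of 0.01 or less and a difference of 0.25 or more), 140 of the 466 tiles were lower in heart than in liver, or 30.0%, against 7.93% of all tiles. Against brain, 122 tiles or 26.2% were lower in heart, against 7.60% of all tiles. The 466 tiles had a mean level of 0.792 in liver, beside 0.653 over all tiles. Neither the shares over all tiles nor those over all gene regions were matched for level. Calls in the other direction were 2 tiles higher in heart than in liver (2.86% of all tiles) and 0 higher than in brain (1.70% of all tiles). At an unadjusted p under 0.05 and any size, 8 of the 466 tiles were higher in heart than in brain by limma (9.05% of all tiles) and 359 were lower (36.9% of all tiles). Between brain and liver, 8 tiles were lower in brain (5.03% of all tiles) and 10 were higher (4.75% of all tiles), so these shares lay under the background. In 203 tiles, or 43.6%, every heart library was below all 18 other libraries, against 6.77% of all tiles. Both comparisons of heart used the same 6 heart libraries, so they are not independent of each other. Without brain library 1, the tiles lower in heart than in brain numbered 131, and the share over all tiles rose as well, to 8.46%.

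**Figure D2:**
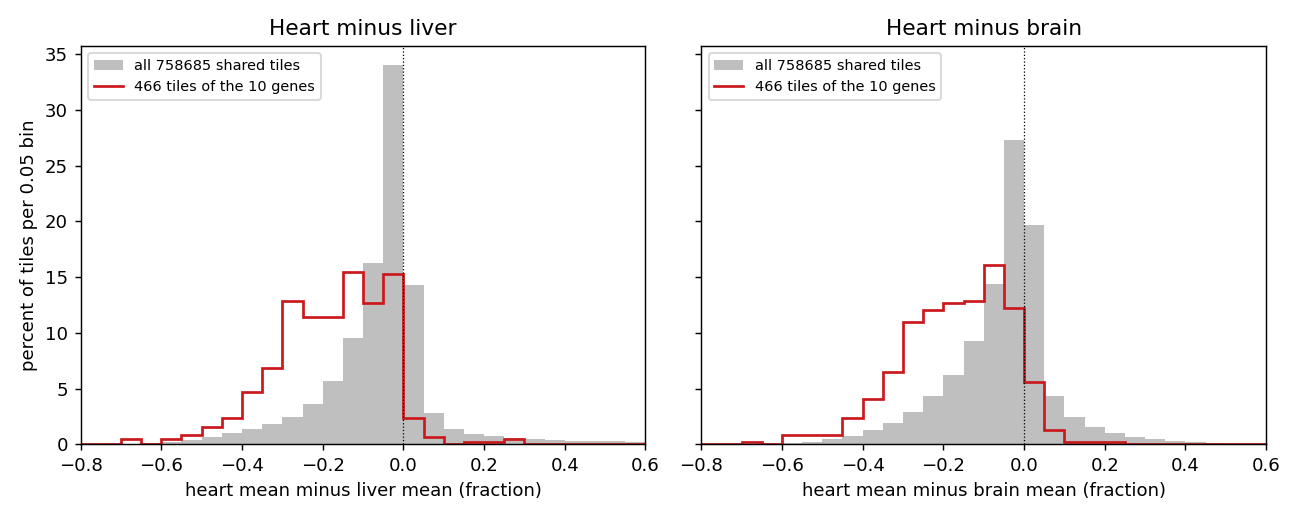
Share of tiles (percent per bin of 0.05) by the difference between tissue means, heart minus liver on the left and heart minus brain on the right, with all shared tiles in grey and the 466 tiles of the sarcomere genes as a red line. The grey distribution peaks just below 0, while the red line is shifted to lower values, with medians of -0.16 and -0.15.

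The tissue means differed by 0.3 or more in 106 of the 466 tiles, or 22.7%, against 13.7% of all tiles. Heart was the lowest tissue in 94 of the 106, brain in 6 and liver in 6. Over all tiles with such a difference, heart was lowest in 51.5%. The highest tissue in those 94 tiles was brain in 41 and liver in 53. In the 94 tiles the heart level ran from 0.053 to 0.671 with a median of 0.481, beside medians of 0.836 in liver and 0.819 in brain. Heart was below 0.5 in 53 of them and below 0.2 in 11, so most of these tiles were at an intermediate level in heart and few were free of methylation. The last tile inside the threshold and the first outside it were both in Ttn, at 0.3008 and 0.2997. Leaving out brain library 1 gave 116 such tiles, and the share over all tiles was not worked out again.

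Where along the genes these tiles lay differed between the genes. Of the 277 tiles in coding exons, 45 or 16.2% were 0.3 or more apart. The same held for 37 of 114 (32.5%) in introns and 22 of 68 (32.4%) outside the genes, against 13.7% of all tiles. The 15 promoter tiles held 5, the 18 tiles in the first kilobase after a start held 4, and the 374 other body tiles held 78. Ttn weighed on these counts because it is long and mostly covered in exons. Shares over all shared tiles of each kind were not worked out, so no preference for a kind of tile can be read from the counts. Without Ttn, 80 of 211 tiles were 0.3 or more apart and the median difference of heart was -0.24 against liver and -0.21 against brain.

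**Figure D3:**
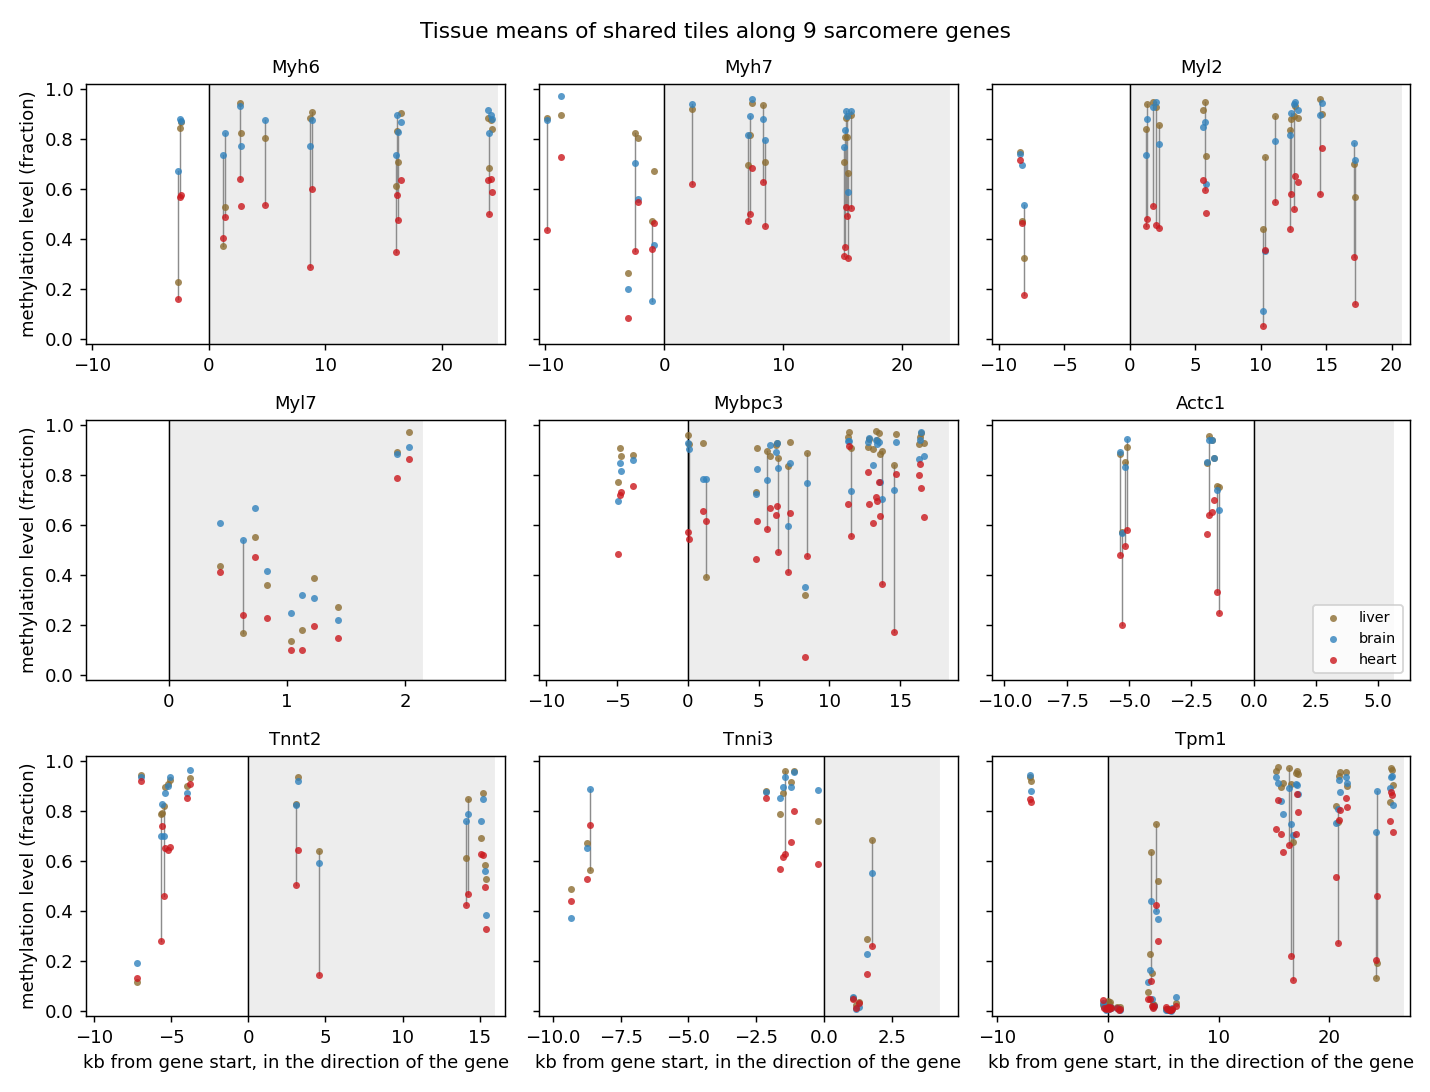
Tissue mean level (fraction) of every shared tile along 9 of the genes (for Myl7, those within the gene), by distance of the tile centre from the gene start in kb, with the gene body shaded and a grey line joining the tissue means of tiles 0.3 or more apart. Heart points lie lowest in most bodies, Actc1 was covered upstream only, the Myl7 tiles lie lower in all tissues near the middle of the gene, and the tiles around the Tpm1 starts lie near 0 in all tissues.

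Of the thick filament genes, Myh6 encodes alpha myosin heavy chain, the main motor of the adult mouse ventricle. Its 18 tiles averaged 0.751 ± 0.0148 in liver, 0.835 ± 0.0550 in brain and 0.510 ± 0.0273 in heart. The 6 heart libraries ran from 0.464 to 0.541 and did not overlap with the liver range of 0.725 to 0.776 or the brain range of 0.731 to 0.8855. The difference of heart was -0.24 against liver (SE 0.015, adjusted p = 2.8e-13, limma) and -0.32 against brain (SE 0.017, adjusted p = 7.7e-14), where it ranked 30 from the lowest of all 21721 regions. Brain was the highest tissue, and brain library 1 was its lowest value at 0.731, and without it the difference from brain was -0.35.

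In Myh6, 12 of 18 tiles were 0.3 or more apart, of which 8 lay in exons, 2 in introns and 2 upstream. The largest difference was in intron 15, at chr14:54957901-54958000, with 0.884 ± 0.0804 in liver, 0.770 ± 0.251 in brain and 0.286 ± 0.0525 in heart. Brain library 1 was at 0.263 there and the other 5 brain libraries were at 0.814 to 0.906, so heart and brain overlapped through this library alone. In coding exon 26, a run of 3 adjoining tiles with 21 CpGs averaged 0.717 in liver, 0.819 in brain and 0.466 in heart. Its last tile, printed above, ranged from 0.304 to 0.396 in heart (median 0.3525), 0.464 to 0.809 in liver (0.607) and 0.668 to 0.798 in brain (0.7385). Single tiles in coding exons 4, 10 and 16 followed the same order of heart below both, with heart levels of 0.641, 0.536 and 0.598. The brain levels in these exons were 0.929, 0.876 and 0.876, and the liver levels 0.945, 0.802 and 0.907. No tile touched the Myh6 promoter.

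The Myh6 tiles in coding exon 3, the nearest to the start, did not separate heart from liver. About 1.3 kb from the start, a tile with 6 CpGs had levels of 0.370 ± 0.0585 in liver, 0.734 ± 0.0849 in brain and 0.403 ± 0.0584 in heart. Heart was lower than brain (adjusted p = 1.3e-06, limma), brain was higher than liver (adjusted p = 1.1e-08), and heart and liver differed by 0.033 (adjusted p = 0.50). The 3 upstream tiles all touched another gene. Those at -2.3 and -2.4 kb were called lower in heart than in liver and brain. Heart was at 0.576 and 0.568 there and liver at 0.867 and 0.842. A tile at -2.6 kb, which also lies in Mhrt, a noncoding transcript of this locus, was again high in brain alone, with 0.227 ± 0.0471 in liver, 0.672 ± 0.10 in brain and 0.159 ± 0.0402 in heart. It was called lower in heart than in brain (adjusted p = 3.2e-09), and missed the call against liver (adjusted p = 0.050). The liver values there, 0.135 to 0.304, overlapped with the heart values of 0.080 to 0.194.

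Myh7 encodes beta myosin heavy chain, the slower myosin of the fetal mouse ventricle and of slow skeletal muscle. Its 19 tiles averaged 0.768 ± 0.0187 in liver, 0.738 ± 0.0240 in brain and 0.468 ± 0.0203 in heart. Heart differed from liver by -0.30 (SE 0.0098, adjusted p = 2.3e-18, limma), rank 55 from the lowest of all regions, and from brain by -0.27 (adjusted p = 1.7e-15). Of the 19 tiles, 14 were 0.3 or more apart and heart was lowest in 13 of these. In coding exons 28 and 29, a run of 6 tiles holding 34 CpGs averaged 0.794 in liver, 0.817 in brain and 0.428 in heart. The tile printed above belongs to this run, and its heart libraries lay between 0.292 and 0.428, far under the lowest liver library (0.710) and the lowest brain library (0.782). Elsewhere in the body, a pair of tiles in coding exon 17 averaged 0.755 in liver, 0.854 in brain and 0.485 in heart, and a pair in intron 19 averaged 0.822, 0.838 and 0.539. Coding exon 5 had 0.920 in liver, 0.938 in brain and 0.619 in heart. Of the 12 body tiles, 11 were 0.3 or more apart, so the difference ran along the whole covered body.

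Myh6 and Myh7 are close paralogs, and part of their covered sequence is nearly the same. In ungapped overlaps of 50 bases or more, 4 of the 18 Myh6 tiles matched 4 of the 19 Myh7 tiles at 90% identity or more. These were the run in Myh6 exon 26 and its counterpart in Myh7 exon 28, and a tile in Myh6 exon 4 beside one in Myh7 exon 5. The exon 26 and exon 28 tiles printed above overlapped over 91 bases with 1 differing base, and the pair of tiles next to them had 0 differing bases over 91. The levels of these tiles are therefore uncertain as to gene, because reads from them could be placed on either copy. The printed tiles had levels of 0.612 in Myh6 and 0.808 in Myh7 in liver, 0.735 and 0.833 in brain, and 0.348 and 0.368 in heart. The part of misplaced reads in these levels was not tested. Without the 4 tiles, a check added after seeing the data, the mean heart difference was -0.23 against liver and -0.32 against brain in Myh6, and -0.29 and -0.24 in Myh7.

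The Myh7 promoter behaved unlike the body. Its 2 covered tiles averaged 0.571 ± 0.0493 in liver, 0.263 ± 0.0360 in brain and 0.411 ± 0.0529 in heart. The 6 brain libraries (0.213 to 0.295) lay below all heart libraries (0.335 to 0.493). Heart was called higher than brain by 0.15 (SE 0.027, adjusted p = 0.00012, limma) and lower than liver with a difference of -0.16 (SE 0.023, adjusted p = 4.5e-06). The tile at -0.83 kb, printed above, had 0.375 ± 0.0523 in brain and 0.671 ± 0.0623 in liver, and brain was called lower than liver (adjusted p = 2.3e-07). At -1.0 kb brain was lower still, at 0.151, with liver at 0.472 and heart at 0.360. Further upstream heart was again lowest: a tile at -9.8 kb had 0.882 ± 0.0547 in liver, 0.875 ± 0.0501 in brain and 0.436 ± 0.0544 in heart. At -2.4 kb heart was at 0.351 ± 0.0634, below all other libraries, beside 0.823 ± 0.0693 in liver and a wider 0.705 ± 0.153 in brain.

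Myl2 encodes the regulatory light chain of the ventricle. Its 23 tiles averaged 0.793 ± 0.0112 in liver, 0.768 ± 0.0296 in brain and 0.480 ± 0.0220 in heart. Heart libraries ran from 0.456 to 0.513 and the lowest other library was brain library 1 at 0.720. The difference was -0.31 against liver (SE 0.0095, adjusted p = 6.3e-19, limma) and -0.29 against brain (SE 0.011, adjusted p = 4.6e-16), ranks 42 and 64 from the lowest. The gene had 16 tiles 0.3 or more apart, 10 of them in introns and 5 in exons, and heart was lowest in 15.

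In Myl2, a run of 5 tiles between 1.2 and 2.2 kb from the first start, holding 13 CpGs, averaged 0.901 in liver, 0.853 in brain and 0.472 in heart. The printed tile from this run, in an exon outside the coding sequence, was tight in every tissue: 0.903 to 0.950 in liver, 0.927 to 0.957 in brain and 0.399 to 0.510 in heart. The 2 tiles of this run closest to a start, in intron 3, had heart levels of 0.452 ± 0.0695 and 0.481 ± 0.0700. The largest difference was 17.2 kb from the start, where long Myl2 transcripts run into Ccdc63, with 0.568 ± 0.115 in liver, 0.713 ± 0.102 in brain and 0.142 ± 0.0278 in heart. In intron 8 a pair of tiles was low in brain as well, averaging 0.583 in liver, 0.232 in brain and 0.204 in heart. Towards the end of the gene, a run of 3 tiles in coding exons 10 and 11 and intron 11 averaged 0.867 in liver, 0.886 in brain and 0.513 in heart. Coding exon 9 had 0.890 in liver, 0.790 in brain and 0.547 in heart. Upstream, at -8.1 kb, all tissues were lower, with 0.324 in liver, 0.534 in brain and 0.175 in heart. No tile touched a Myl2 promoter.

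Myl7 encodes the regulatory light chain of the atrium, and its region differed least. Its 21 tiles averaged 0.629 ± 0.0155 in liver, 0.586 ± 0.00752 in brain and 0.525 ± 0.0188 in heart. The difference against liver was -0.10 (SE 0.0073, adjusted p = 2.6e-12, limma), just past the size set for a call, and the -0.061 against brain (adjusted p = 5.8e-07) was under it. With 2 kb in place of 10 kb upstream, the 2 values became -0.080 and -0.16, so that the call against liver was lost and a call against brain was gained.

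Within Myl7 itself 10 tiles were covered, and the other 11 lay upstream. The 5 tiles in the first kilobase averaged 0.331 in liver, 0.495 in brain and 0.291 in heart, and the 5 further in averaged 0.540, 0.528 and 0.419. Coding exon 3, printed above, had 0.170 ± 0.0818 in liver, 0.540 ± 0.0720 in brain and 0.240 ± 0.109 in heart, so there liver was lowest and brain highest. Its liver libraries ran from 0.077 to 0.375 and its heart libraries from 0.118 to 0.393, which overlapped, while all brain libraries lay above both at 0.472 to 0.632. In intron 4, a tile 1.2 kb from the start had 0.389 ± 0.0402 in liver, 0.307 ± 0.0409 in brain and 0.197 ± 0.0312 in heart. Every heart library there (0.158 to 0.231) was below all others, of which the lowest was a brain library at 0.247. Coding exon 4 had heart at 0.229 ± 0.0323, again below all other libraries, beside 0.361 in liver and 0.415 in brain.

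Mybpc3 encodes cardiac myosin-binding protein C, which tunes the movement of the myosin heads. Its 36 tiles averaged 0.876 ± 0.00713 in liver, 0.833 ± 0.0319 in brain and 0.618 ± 0.0167 in heart. Its heart level differed by -0.26 from liver (SE 0.0088, adjusted p = 5.2e-18, limma) and by -0.21 from brain (SE 0.010, adjusted p = 1.3e-14). Of the 36 tiles, 21 were called lower in heart than in liver and 11 lower than in brain. Brain library 1, at 0.773, was the lowest brain library and still lay well above the highest heart library at 0.640.

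A tile in coding exon 26 of 35 in Mybpc3, holding 6 CpGs and printed above, showed the largest difference of this gene. Liver had a level of 0.839 ± 0.0295, brain of 0.738 ± 0.0404 and heart of 0.173 ± 0.0203. All 6 heart libraries lay between 0.14 and 0.20, while the lowest of the other 18 libraries was at 0.675. This was a difference of -0.67 from liver (adjusted p = 6.7e-16, limma) and of -0.56 from brain (adjusted p = 4.3e-12). At the start of Mybpc3, a tile spanning the transcription start, with 1 CpG, had 0.958 ± 0.0401 in liver, 0.925 ± 0.0447 in brain and 0.570 ± 0.0767 in heart. The next tile, in the same exon, was alike with 0.924 ± 0.0292 in liver, 0.904 ± 0.0717 in brain and 0.544 ± 0.055 in heart. Further along, heart had 0.585 in intron 12, 0.493 across exons 15 and 16, 0.477 in intron 20, 0.555 in intron 22 and 0.365 in intron 25, each below the mean of both other tissues. In coding exon 18 brain was intermediate at 0.596 ± 0.116, between 0.833 ± 0.0578 in liver and 0.411 ± 0.0424 in heart. In coding exon 2 the order changed, with liver lowest at 0.393 beside 0.785 in brain and 0.615 in heart.

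Of the thin filament genes, Actc1 encodes cardiac alpha actin and had the largest region difference of the 10 genes against liver. Against brain it was close to Myh6, and without brain library 1 Myh6 was ahead (-0.35 and -0.33). All 10 of its shared tiles lay upstream of the start, so the gene body was not measured. They averaged 0.833 ± 0.0209 in liver, 0.822 ± 0.0139 in brain and 0.491 ± 0.0290 in heart. Heart libraries ran from 0.453 to 0.522 and the lowest of the others was at 0.799. The difference was -0.34 against liver (SE 0.010, adjusted p = 6.6e-19, limma) and -0.33 against brain (SE 0.012, adjusted p = 2.7e-16), ranks 32 and 24 from the lowest of the 21721 regions. Most of these tiles, 9 of 10, also lay in C130080G10Rik, a gene that overlaps the upstream stretch.

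Heart was lowest in all 7 Actc1 tiles that were 0.3 or more apart. They formed 2 groups, at -1.8 to -1.4 kb and at -5.4 to -5.1 kb from the start. The tile nearest the start, printed above with its single CpG, was at 0.643 to 0.868 in liver (median 0.747), 0.515 to 0.742 in brain (0.6745) and 0.143 to 0.362 in heart (0.2415). The 4 adjoining tiles of the far group, holding 8 CpGs, averaged 0.804 in liver, 0.808 in brain and 0.443 in heart. Heart there fell to 0.199 in a tile with 0.570 in liver and 0.566 in brain.

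Tnnt2 encodes cardiac troponin T, the subunit that ties troponin to tropomyosin. Its 19 tiles averaged 0.766 ± 0.0140 in liver, 0.754 ± 0.0309 in brain and 0.553 ± 0.0176 in heart. The difference was -0.21 against liver (SE 0.0096, adjusted p = 7.8e-16, limma) and -0.20 against brain (SE 0.011, adjusted p = 1.3e-13). Heart was lowest in all 6 tiles that were 0.3 or more apart. The tile in coding exon 2, printed above, held 4 CpGs and ranged from 0.075 to 0.20 in heart, 0.419 to 0.810 in liver and 0.431 to 0.753 in brain. Liver and brain were spread widely there (SD 0.124 and 0.142), and heart was still below all of them. A pair of tiles in intron 12 averaged 0.731 in liver, 0.772 in brain and 0.444 in heart, and intron 1 had 0.827, 0.824 and 0.504. A tile at -5.7 kb, inside the neighbouring Lad1, had 0.787 ± 0.0989 in liver, 0.701 ± 0.0537 in brain and 0.281 ± 0.0539 in heart. The 10 upstream tiles all touched Lad1, and the 9 tiles within Tnnt2 had a mean of 0.473 in heart beside 0.726 in liver and 0.715 in brain.

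Tnni3 encodes cardiac troponin I, the inhibitory subunit. Its 15 tiles averaged 0.596 ± 0.0173 in liver, 0.604 ± 0.0168 in brain and 0.462 ± 0.0177 in heart. The heart region differed by -0.13 from liver (SE 0.0084, adjusted p = 3.1e-13, limma) and by -0.14 from brain (adjusted p = 4.5e-12). All 9 tiles upstream of the promoter touched another gene. The median difference of heart over the 5 body tiles was -0.0098 against liver and -0.0055 against brain. In the gene body 3 of 5 tiles were close to unmethylated in every tissue, at 0.053 or less in liver, 0.055 or less in brain and 0.050 or less in heart. Coding exon 5 stood higher, at 0.288 in liver, 0.228 in brain and 0.148 in heart, and so did intron 5, printed above, at 0.682 ± 0.0646 in liver, 0.552 ± 0.0441 in brain and 0.261 ± 0.0514 in heart. The promoter tile at -0.22 kb, with 3 CpGs, was at 0.758 ± 0.0685 in liver, 0.883 ± 0.0416 in brain and 0.586 ± 0.0998 in heart. Its heart values, 0.476 to 0.734, lay below all brain values (0.811 to 0.928) and overlapped with liver (0.615 to 0.870). A tile at -8.6 kb, within Dnaaf3, had liver lowest at 0.565 ± 0.0919 beside 0.887 ± 0.0602 in brain and 0.742 ± 0.0577 in heart.

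Tpm1 encodes alpha tropomyosin, which is also made in many non-muscle cells from other starts and splice forms. Its region was the least methylated of the 10, with 50 tiles averaging 0.461 ± 0.00463 in liver, 0.450 ± 0.0137 in brain and 0.342 ± 0.00967 in heart. The differences were -0.12 against liver (SE 0.0047, adjusted p = 5.6e-17, limma) and -0.11 against brain (SE 0.0054, adjusted p = 2.3e-14). Around its 2 starts the tiles were CpG-dense and nearly free of methylation. The 10 tiles in the first kilobase had a mean of 0.0174 in liver, 0.0143 in brain and 0.0101 in heart. The 9 promoter tiles averaged 0.156 in liver, 0.0954 in brain and 0.0911 in heart, and liver stood higher in a pair of tiles about 4.4 kb from the first start. These were at 0.747 and 0.518 in liver, 0.401 and 0.367 in brain, and 0.422 and 0.280 in heart, while the other 7 were at 0.044 or less in every tissue.

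The Tpm1 body held the tiles with the widest spread between tissues outside Ttn. In intron 5, the tile printed above held 5 CpGs and was at 0.907 ± 0.0217 in liver, 0.745 ± 0.0617 in brain and 0.219 ± 0.0436 in heart. Heart minus liver was -0.69 (adjusted p = 1.6e-15, limma) and heart minus brain -0.53 (adjusted p = 1.5e-10), with no overlap of the libraries. The neighbouring tile in coding exon 6 was alike, with 0.674 in liver, 0.705 in brain and 0.124 in heart. Coding exon 5 was high in liver (0.969) and brain (0.891) and at 0.664 in heart. Intron 9 had 0.757 in liver, 0.809 in brain and 0.273 in heart, and intron 2, at 3.9 kb, had 0.635, 0.439 and 0.119. About 24 kb from the start, in an intron, a pair of tiles had liver lowest. The printed tile ranged from 0.140 to 0.263 in liver, 0.395 to 0.621 in heart and 0.701 to 0.951 in brain. It was 1 of the 2 tiles called higher in heart than in liver (by 0.26, adjusted p = 1.9e-05), and brain exceeded liver by 0.69 (adjusted p = 4.6e-13). In the tile next to it, brain was at 0.717 ± 0.133, with liver at 0.134 ± 0.0392 and heart at 0.206 ± 0.0327.

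**Figure D4:**
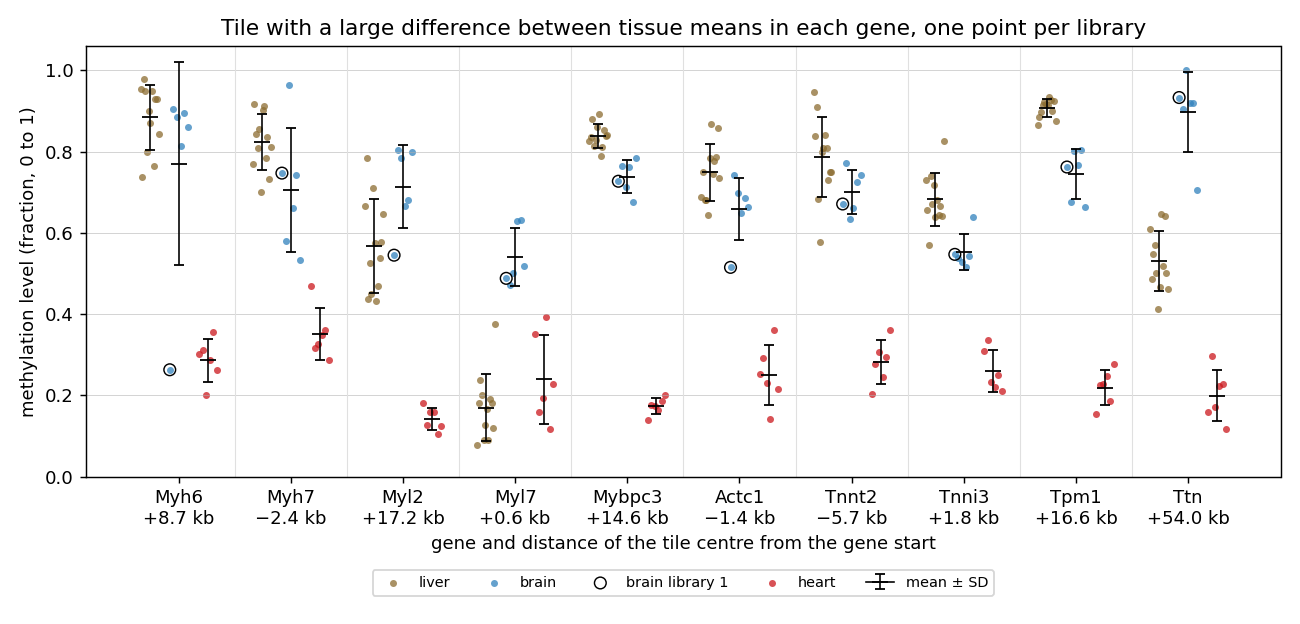
Level (fraction) in each library at the tile with the largest difference between tissue means in each gene (for Myl7, within the gene), with the mean ± SD and the distance of the tile centre from the gene start. Heart points sit under the other tissues in 8 of the 10 tiles; in Myl7 heart and liver overlap under brain, and in Myh6 the ringed brain library 1 lies among the heart points at 0.263.

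Ttn encodes titin, the giant spring of the sarcomere, and was covered by 255 tiles over its length. These averaged 0.876 ± 0.00321 in liver, 0.873 ± 0.0191 in brain and 0.726 ± 0.00793 in heart. Over the region heart differed by -0.15 from liver (SE 0.0053, adjusted p = 9.3e-18, limma) and by -0.15 from brain (SE 0.0061, adjusted p = 1.5e-15). Brain library 1 was at 0.834 and the other 5 brain libraries at 0.877 to 0.883. In 105 of the 255 tiles, or 41.2%, every heart library was below all other libraries, against 6.77% of all tiles. Only 26 tiles, or 10.2%, were 0.3 or more apart, which is under the 13.7% of all tiles. Heart was lowest in all 26. The drop was thus spread over many tiles and modest in most. In the 206 tiles of coding exons, the median difference was -0.14 against liver and -0.13 against brain, and in the 42 intron tiles it was -0.13 and -0.14.

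The Ttn promoter was also lower in heart. Its 2 tiles averaged 0.731 ± 0.0475 in liver, 0.723 ± 0.0633 in brain and 0.385 ± 0.0262 in heart. Heart libraries ran from 0.350 to 0.424, below the liver range of 0.623 to 0.796 and the brain range of 0.627 to 0.797. In the tile at -0.10 kb, printed above with its single CpG, heart was at 0.449 to 0.562, while the lowest other library was at 0.747. Within the gene, intron 43 of Ttn held the widest spread of all 466 tiles, at 0.530 ± 0.0740 in liver, 0.897 ± 0.0995 in brain and 0.199 ± 0.0630 in heart. Heart minus brain was -0.70 there (adjusted p = 8.5e-09, limma) and heart minus liver -0.33 (adjusted p = 0.00027). Brain exceeded liver by 0.37 (adjusted p = 7.3e-07). In intron 106 heart was at 0.206 ± 0.0452 beside 0.667 ± 0.0533 in liver and 0.782 ± 0.135 in brain, where brain library 1 was lowest at 0.519. Of the 26 tiles, 15 lay in coding exons, among them exons 4, 18, 28, 53, 79, 80 and 107 in the first stretch of the gene. In these 7 tiles heart was at 0.481 to 0.664. Such tiles in exons 275, 293, 296 and 307, towards the end of the gene, had heart at 0.60 to 0.671 and liver at 0.912 to 0.977. Exons 174 and 195 had lower heart levels of 0.467 and 0.348. Lower heart levels stood in introns, such as 0.20 in intron 147, where liver and brain were also low at 0.448 and 0.528, and 0.315 in intron 45. Intron 103 went the other way, with 1 tile called higher in heart than in liver (by 0.27, adjusted p = 0.0017, limma), at 0.375 to 0.558 in heart, 0 to 0.362 in liver and a mean of 0.451 in brain.

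**Figure D5:**
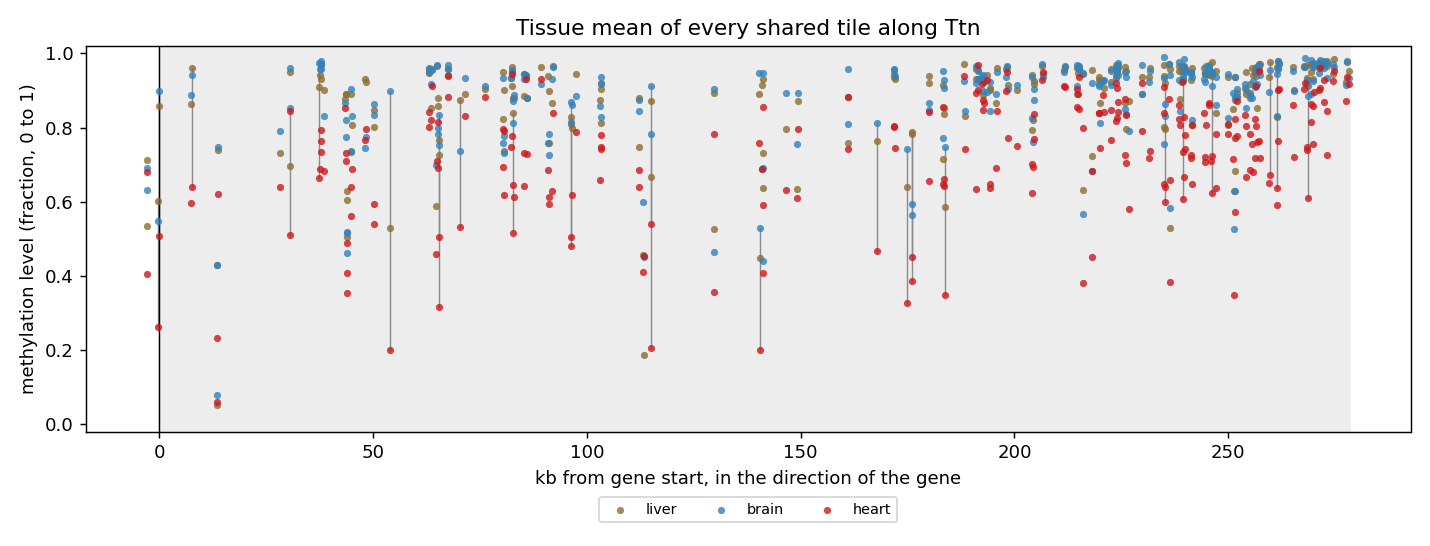
Tissue mean level (fraction) of the 255 shared tiles along Ttn by distance of the tile centre from the gene start in kb, with the gene body shaded and a grey line joining the tissue means of the 26 tiles 0.3 or more apart. Liver and brain points run together near the top, and heart points mostly lie lower along the gene, with the deepest drops in scattered tiles such as that 54.0 kb from the start (0.199).

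Promoters, taken as the 1000 bp upstream of any curated start, were covered in 5 of the 10 genes. Of these, 4 of 5 were called lower in heart than in liver, against 8.52% of all 15222 promoters, and 3 of 5 lower than in brain, against 7.85%. The 4 promoters called against liver had liver levels of 0.571 to 0.958. Shares over promoters of like level were not worked out. Mybpc3, Ttn and Tnni3 were lower than both, with differences of -0.39 to -0.17 against liver and -0.36 to -0.30 against brain. The -0.17 was that of the single Tnni3 tile. With the tiles of each tissue's own table the value was -0.37, but that value compares different sets of tiles. Tnni3 had 15 tiles in the liver table, all of them shared, and 20 in the heart table. It therefore does not show a larger difference at the same tile. Myh7 was lower than liver only and higher than brain, and Tpm1 was called in neither. The median over all promoters was -0.0039 against liver and 0.00050 against brain. Where 1000 bp on both sides of a start were counted, 7 genes were covered and 5 of 7 were lower in heart in each comparison. For Myh6, Actc1, Tnnt2, Myl2 and Myl7 no promoter tile was shared, and nothing can be said of their promoters.

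Other genes of the sarcomere were read in the same way. Of 16 other cardiac sarcomere and Z-disc genes, 11 were called lower in heart than in liver and 11 lower than in brain (13.7% and 13.0% of all gene regions), and their median differences were -0.13 and -0.11. Heart was the lowest tissue in 16 of 16 of these, and in 69.0% of all gene regions. The same held for 16 of 18 skeletal muscle, 6 of 6 smooth muscle and 4 of 4 endothelial genes. It held for only 4 of 7 measured cardiomyocyte genes outside the sarcomere, 4 of 8 brain genes and 1 of 8 hepatocyte genes. Among the 16 cardiac genes, the largest difference from liver was in Csrp3, a Z-disc protein. It had 0.735 in liver, 0.439 in brain and 0.234 ± 0.0226 in heart, rank 2 from the lowest of all regions against liver. Tcap, the titin cap protein, was at 0.866 in liver and 0.612 in heart. Myl3, the ventricular essential light chain, was at 0.825 and 0.590. Of 18 skeletal muscle sarcomere genes, 4 were called lower in each comparison, with median differences of -0.056 and -0.056. The largest difference of these from liver was in Tnnt1, slow skeletal troponin T, at 0.589 in liver and 0.397 ± 0.00651 in heart. Next in size against liver were Myl1, the fast skeletal essential light chain (0.805 and 0.640), and Myh1, a fast skeletal myosin heavy chain (0.827 and 0.722). Against brain, Myl1 had the largest difference (-0.18) and Myh1 was not called (-0.079). Of 7 measured cardiomyocyte genes that are not part of the sarcomere, 3 were lower in heart than in liver and 2 lower than in brain. Their median differences were -0.083 and -0.059. Nppa, encoding atrial natriuretic peptide, was higher in heart than in brain (0.680 and 0.431).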

How the data were processed

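DNA methylation was measured by enhanced RRBS in 24 libraries. Per the study's methods, library preparation, sequencing and mapping were done by a commercial service whose methods are not public. The authors averaged CpGs into tiles of 100 bp with methylKit and kept tiles with more than 10 reads in every library of the tissue. The submitters' processing notes also name Bismark and mm10. The deposited tables, 1 per tissue, hold the tile position and a methylation fraction from 0 to 1 per library, without counts or coverage, so the depth is unknown, no interval for counting error can be given, and errors are SDs over libraries. Because the columns of fractions are numbered without reference to an animal, they were assigned to a tissue only and genders were not compared.

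The tables held 819713 liver, 942643 brain and 930358 heart tiles, and the 758685 tiles in all 3 were used. Of these, 99.9% contained a CpG of the RefSeq mm10 genome. Gene ends, exons and starts came from 43783 curated RefSeq transcripts, and a promoter was the 1000 bp upstream of a start. For each tile, limma 3.58.1 in R 4.3.3 was fitted over the 3 tissues on log2((fraction + 0.01)/(1 - fraction + 0.01)), with Benjamini-Hochberg adjustment over all tiles. Region and promoter means (at least 3 and 1 tiles) were fitted as fractions over all genes. On 50000 simulated tiles for heart against liver, 83% of 100 tiles lowered by 0.3 and 100% of 100 lowered by 0.4 were recovered. Of 49800 unchanged tiles, 0 were called. The simulated libraries were independent, with normal noise of the same SD in all tissues, and the lowered tiles were drawn from the more methylated ones. These shares are therefore not error rates of the real data. Tiles named for each gene were the one nearest the start and up to 3 with the largest difference between tissue means, and for the other lists up to 3 genes with the largest difference of heart from liver. Single tiles upstream of Myl7 entered counts and region means and are not reported here. The genes, lists and rules were chosen with earlier results of these data known. The mice of brain and heart were also among the liver mice and the mice were littermate pairs, so libraries of different tissues are not independent, and p-values measure the spread between these libraries.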

Additional observations from a re-analysis of the deposited data

Results flagged for a closer look

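In 104 sets of 6 brain or 6 heart libraries (region means, promoter means and named tiles), a library at the edge was far from the others in 12 by Dixon's ratio, and chance gives about 1 in 20 such sets. Brain library 1 was the library in 8 of the 12. It was low in the Myh6 region (0.731, the others 0.831 to 0.8855), the Tnnt2 region (0.693, the others 0.756 to 0.779) and the Ttn region (0.834, the others 0.877 to 0.883). At single tiles it was low in Myh6 intron 15 (0.263), in Tnnt2 at 3.1 kb (0.688), in Tnni3 at -1.4 kb (0.854), in Ttn intron 106 (0.519) and in Tpm1 at 24.3 kb (0.701).

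Brain library 6 was high in Tnni3 intron 5 (0.639, the others 0.516 to 0.547) and low in Ttn intron 43 (0.706, the others 0.906 to 1.0). Heart library 4 was low in Myh6 coding exon 3 (0.286, the others 0.412 to 0.441) and in the Myh6 tile at -2.6 kb (0.080, the others 0.158 to 0.194).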

How the results depend on the processing

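Of 75 summary values recomputed under another setting, 63 stayed within the limits set (1.5 times for a count, 1 SD for a level). Some of these could move little or not at all, as given below. Requiring only an adjusted p of 0.01 gave 339 tiles lower in heart than in liver (27.5% of all tiles) and 290 lower than in brain (22.4% of all tiles), with 57 lower and 42 higher in brain than in liver (16.4% and 14.0% of all tiles). A difference of at least 0.4 gave 26 (2.29% of all tiles), 24 (1.60% of all tiles), 3 (1.52% of all tiles) and 3 (2.31% of all tiles). Tiles lower in brain than in liver numbered 5 with 2 kb upstream and also 5 without tiles touching another gene. Promoters counted on both sides of the start gave 5 lower in heart than in brain, and a threshold of 0.4 left 36 tiles apart. No difference of a region or promoter changed sign. The log2 ratio and the fits of 2 tissues could not change one, because the difference was taken from the same fractions. Nor could leaving out brain library 1 change a difference of heart from liver. Among single regions and promoters, only Myl7 changed a call, with 2 kb upstream, as given with that gene. Further settings were fractions without the log2 ratio, an offset of 0.05, fits of 2 tissues and a trended and robust variance. These gave 140 tiles in the comparison with liver each time, and 123 to 124 in the comparison with brain. They could change only the p-value, because the cut of 0.25 was applied to the same fractions each time. The counts could not rise above the number of tiles past that cut, so their sameness says little about the fit. With all tiles shared by only the 2 tissues compared, 140 of 468 and 139 of 514 tiles were called.

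No paired analysis was possible because the columns cannot be tied to single animals, although brain and heart came from mice also used for liver. Leaving out brain library 1 was chosen after seeing the data. Without read counts, tiles with few reads cannot be told from deep ones, and tiles seen in 1 or 2 tissues only were not analysed here. Promoters of 5 genes and the Actc1 body had no shared tile.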

Other observations

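Of the 466 tiles, 48 touched another gene. Without them, 118 of 418 tiles were lower in heart than in liver and 103 lower than in brain (7.93% and 7.60% of all tiles). By the number of CpGs, heart was called lower than liver in 37 of 81 tiles with 1 CpG (9.54% of all such tiles), in 59 of 218 with 2 to 3 (9.18%), in 36 of 135 with 4 to 6 (6.64%) and in 8 of 32 with 7 or more (1.40%). Median levels in the last class were 0.617 in liver, 0.366 in brain and 0.318 in heart. Shares over tiles of like level were not worked out for any class.

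In the 360 tiles under 0.3 apart, the median difference was still -0.13 against liver and -0.11 against brain. Every heart library was below all others in 128 of them, or 35.6%, beside 6.77% of all tiles whatever their difference. Repeats were few: 3.65% of the 466 tiles had at least 50 soft-masked bases, the largest share being in Myl2, at 26.1% of its tiles.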
